A study of Rattus norvegicus with 20 samples.

Results

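The transcripts described here are 3 of the 32883 genes in a table of read counts from rat gastrocnemius (a calf muscle) and white fat of the abdomen. They are Myh4 (ENSRNOG00000049695), Pvalb (ENSRNOG00000006471) and Ckm (ENSRNOG00000016837). The members were chosen by their high levels in muscle, with earlier results of these data known, to ask whether transcripts of fast fibres vary together across muscle libraries and which of them stay constant. The pairing of each identifier with its symbol comes with that choice, since the deposited table holds identifiers alone. All libraries came from 8-month-old rats of a Fischer 344 x Brown Norway cross, and no treatment or genotype distinguished the animals. There were 10 gastrocnemius libraries and 10 white adipose libraries from the same 10 rats, called here by the number of the rat. The 20 sample labels read male, although the series' design text counts 5 males and 5 females, and sex was therefore not used. Each library is bulk tissue, so fewer fibres of a type and less RNA per fibre cannot be told apart in any value below.

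Skeletal muscle is a mosaic of fibre types that differ in how fast they contract and how they renew ATP. Myh4 encodes the myosin heavy chain of the fastest, most glycolytic fibres of rodent limb muscle. Parvalbumin, the product of Pvalb, is a soluble calcium buffer that is abundant in fast fibres of rodents and speeds their relaxation. Ckm encodes the muscle form of creatine kinase, which renews ATP from phosphocreatine and is made in both fast and slow fibres. Reads of Myh4 can be shared with other sarcomeric myosin heavy chains of near-identical sequence, and how such reads were assigned is not given in the sources used here, so its level is uncertain to that extent. Counts were whole within 0.005 of a read in 1 of 20 libraries for Myh4, 5 for Pvalb and 2 for Ckm.

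The sequences around the starts of the 3 genes are given as a description, and whether they bear on the transcripts' levels was not tested. All 3 symbols were matched in a promoter table from RefSeq on the build GRCr8, which spans 250 bases before to 50 bases after each gene's start and is not the build named for the counts. The Myh4 window lies at chr10:52421898-52422197 on the plus strand, Pvalb at chr7:111666240-111666539 on the minus strand and Ckm at chr1:88189211-88189510 on the plus strand. Capitals mark matches, on either strand, to an E-box (CANNTG), a TATA box (TATAAA), the CArG box consensus or the MEF2 consensus.
Myh4: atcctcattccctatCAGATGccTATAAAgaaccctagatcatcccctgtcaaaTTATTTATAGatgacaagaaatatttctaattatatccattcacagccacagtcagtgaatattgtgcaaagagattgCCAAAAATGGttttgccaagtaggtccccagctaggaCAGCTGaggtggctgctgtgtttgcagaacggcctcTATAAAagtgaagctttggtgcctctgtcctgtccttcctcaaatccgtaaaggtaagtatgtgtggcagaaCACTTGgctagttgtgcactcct
Pvalb: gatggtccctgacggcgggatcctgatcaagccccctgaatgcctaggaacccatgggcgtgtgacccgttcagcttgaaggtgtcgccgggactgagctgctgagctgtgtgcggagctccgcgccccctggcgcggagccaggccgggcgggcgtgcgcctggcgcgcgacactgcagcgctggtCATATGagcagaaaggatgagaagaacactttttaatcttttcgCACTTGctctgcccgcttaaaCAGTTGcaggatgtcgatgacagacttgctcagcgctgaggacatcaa
Ckm: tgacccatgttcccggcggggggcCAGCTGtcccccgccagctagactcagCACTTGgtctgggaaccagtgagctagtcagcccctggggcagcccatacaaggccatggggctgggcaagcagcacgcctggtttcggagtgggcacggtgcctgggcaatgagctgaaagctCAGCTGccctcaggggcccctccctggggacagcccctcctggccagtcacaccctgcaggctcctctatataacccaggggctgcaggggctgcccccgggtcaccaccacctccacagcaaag

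Each of the windows held 3 E-boxes, a motif found in 72.1% of the 33469 promoter windows of the same length. Only the Myh4 window held matches to the other motifs searched. It had 3 TATA boxes, counting both strands (14.2% of all windows held at least 1), 1 CArG box (1.64% of all windows) and 1 MEF2 consensus (3.29% of all windows). The MEF2 match covers one of the TATA matches. The TATA search took the exact letters TATAAA, so near matches, such as tatataa in the Ckm window, were not counted. In base composition, 43.0% of the Myh4 window was G or C, as were 60.7% of the Pvalb window and 66.7% of the Ckm window. These matches describe letters in a window and not binding.

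Total counts ran from 8446548 to 20141701 in gastrocnemius and from 11067641 to 25904168 in white adipose tissue. Among muscle libraries that of rat 7 was the shallowest, that of rat 2 held 16480287 counts and that of rat 8 held 15946760. The 10 most abundant genes took 27.9% of the counts in the muscle library of rat 2, against 29.7% to 34.3% in the other 9. Levels are given as CPM, counts scaled to library size with trimmed-mean (TMM) factors. They are not divided by transcript length, so levels of different genes are not compared. The members were chosen by their high levels in muscle, so they are no independent check of the tissue labels. No marker of another cell type could be matched to an identifier.

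The median level of all 3 transcripts was far higher in gastrocnemius than in white adipose tissue, where the libraries of rats 1, 3 and 5 held more than the rest. Myh4 had a lowest level of 5640 CPM, a median of 165838 and a highest of 193362 in gastrocnemius, against 8.87, 24.7 and 1276 CPM in white adipose tissue. The 2 tissues did not overlap for this myosin. Ckm had a lowest level of 9287 CPM, a median of 40280 and a highest of 44004 in gastrocnemius, against 2.30, 8.69 and 322 CPM in white adipose tissue. The kinase did not overlap between the tissues either. The members were chosen by high levels in muscle, and how many other genes show no overlap was not counted. Pvalb had a lowest level of 5.21 CPM, a median of 6029 and a highest of 8181 in gastrocnemius, against 0.403, 1.35 and 47.4 CPM in white adipose tissue. The tissues overlapped for the calcium buffer, since its level in the muscle of rat 2 was below its level in the adipose libraries of rats 1 and 3. With counts scaled by library totals alone, the muscle of rat 2 held 3.88 CPM of Pvalb and also lay below the adipose library of rat 5.

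Given as a description, because this contrast chose the members, the log2 fold changes of gastrocnemius over white adipose tissue were 9.38 (SE 1.24) for Myh4, 9.37 (SE 1.27) for Pvalb and 9.28 (SE 1.11) for Ckm in the edgeR fit. All 3 members passed the filter on low counts and all 3 were called higher in muscle, where 79.8% of 13806 genes were called in either direction and 37.6% were called higher in muscle. The mean log2 TMM factor of muscle minus that of adipose tissue was -1.30. With library totals in place of these factors, the members' log2 fold changes were 8.24, 8.21 and 8.13, and 1692 of 11932 called genes were higher in muscle, against 5187 of 11011. Without the adipose libraries of rats 1, 3 and 5, which held the most of these transcripts, the log2 fold changes were 13.03, 12.45 and 12.55. None of these fits used the pairing of the tissues by rat. With the animal as a block and all libraries kept, the log2 fold changes were 11.57 for Myh4, 10.92 for Pvalb and 11.49 for Ckm.

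**Figure D1:**
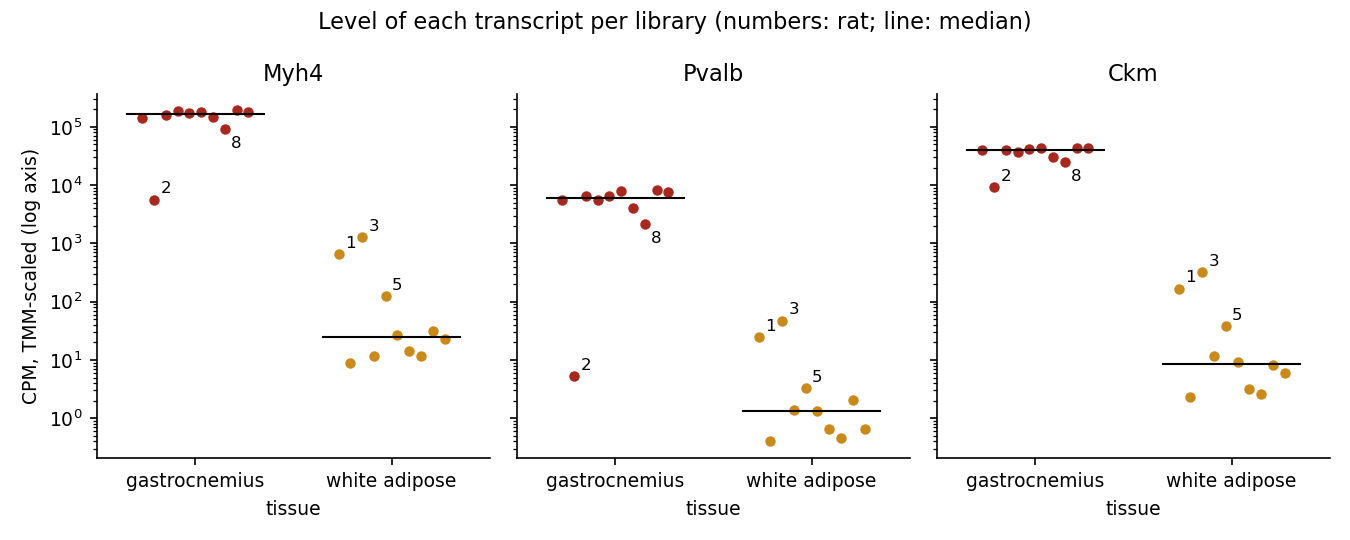
Level of Myh4, Pvalb and Ckm in each library, in TMM-scaled CPM on a log axis, with 10 gastrocnemius libraries left of 10 white adipose libraries and a line at each median. Numbers name single rats: the muscle of rat 2 is the lowest muscle library for each transcript, and adipose libraries 1, 3 and 5 are the highest of their tissue.

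Within gastrocnemius, the muscle of rat 2 had the lowest level of each of the 3 transcripts, and the shortfall differed between them. Its 5.21 CPM of Pvalb rested on 64 reads (exact Poisson 95% interval 49.3 to 81.7, counting error only), against 2133 to 8181 CPM in the other 9 muscles. This is 1237-fold below their median of 6440 CPM. Its Myh4 was 5640 CPM, against 92221 to 193362 CPM in the other 9, which is 30.2-fold below their median. Its Ckm was 9287 CPM, against 24548 to 44004 CPM in the other 9, which is 4.35-fold below their median. Relative to that median, the calcium buffer stood at 0.0808%, the myosin at 3.31% and the kinase at 23.0%. By library totals alone, the reductions were 1052-fold, 24.2-fold and 3.57-fold. One library has no replicate, and these folds carry no test.

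The muscles of rats 8 and 7 stood next in the order of Pvalb and Ckm. In rat 8 Pvalb was 2133 CPM, Ckm 24548 CPM and Myh4 92221 CPM, which are 32.7%, 59.2% and 52.1% of the medians of the 7 muscles other than those of rats 2, 7 and 8. In rat 7 Pvalb was 4084 CPM, Ckm 30622 CPM and Myh4 146148 CPM, which are 62.6%, 73.9% and 82.5% of the same medians. In both muscles the calcium buffer was the furthest below those medians. In the muscle of rat 7 the levels of Pvalb and Ckm lay below those of all 7, while Myh4 lay within their range of 141643 to 193362 CPM. Across the 9 muscles without rat 2, the highest level was 3.84 times the lowest for Pvalb, 2.10 times for Myh4 and 1.79 times for Ckm.

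The first question was whether the transcripts vary together across muscle libraries. They did over the 10 libraries. On log2 CPM, Pearson's r was 0.98 for Pvalb and Ckm (permutation p = 3e-05, adjusted p = 9e-05), with Spearman's rho of 0.94 (permutation p = 0.00023, adjusted p = 0.00069). For Myh4 and Pvalb r was 0.997 (permutation p = 0.00029, adjusted p = 0.000435) and rho 0.85 (permutation p = 0.00267, adjusted p = 0.00401). For Myh4 and Ckm r was 0.97 (permutation p = 0.00126, adjusted p = 0.00126) and rho 0.75 (permutation p = 0.0181, adjusted p = 0.0181). These are the 3 pairs compared, with two-sided tests and Benjamini-Hochberg adjustment over the 3 pairs.

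Because the muscle of rat 2 lies far from the rest, the relations were also read without it. Over the other 9 muscles r was 0.98 for Pvalb and Ckm, 0.93 for Myh4 and Pvalb and 0.88 for Myh4 and Ckm (exact permutation test, two-sided, adjusted p = 0.00029, 0.00426 and 0.0113). The rank correlation of Myh4 and Ckm did not pass there, with rho of 0.65 (exact permutation adjusted p = 0.0666), nor when the muscle of rat 7 (rho of 0.68, exact permutation adjusted p = 0.0503) or rat 8 (rho of 0.65, exact permutation adjusted p = 0.0666) was left out. Leaving out the 2 libraries farthest from the median of the measure on the horizontal axis, which were those of rats 2 and 8 for each pair, gave r of 0.93 for Pvalb and Ckm (exact permutation p = 0.000868, n = 8), 0.73 for Myh4 and Pvalb (exact permutation p = 0.0372, n = 8) and 0.55 for Myh4 and Ckm (exact permutation p = 0.147, n = 8). The Pearson correlation of Myh4 with Ckm thus no longer passed without the muscles of rats 2 and 8. Leaving out the muscle of rat 4 instead raised its rho to 0.93 (exact permutation adjusted p = 0.00075, n = 9). The muscles of rats 2, 7 and 8 were the lowest in Pvalb and Ckm and were left out together after seeing the data. That narrows the range, so a smaller r without them cannot show that a pair varies independently. Among the 7 muscles without rats 2, 7 and 8, r was 0.22 for Myh4 and Ckm, 0.61 for Myh4 and Pvalb and 0.87 for Pvalb and Ckm (exact permutation adjusted p = 0.612, 0.2145 and 0.0303, n = 7). The calcium buffer and the kinase were thus the pair whose Pearson correlation passed within these 7, while their rank correlation did not (rho of 0.82, exact permutation adjusted p = 0.1023).

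**Figure D2:**
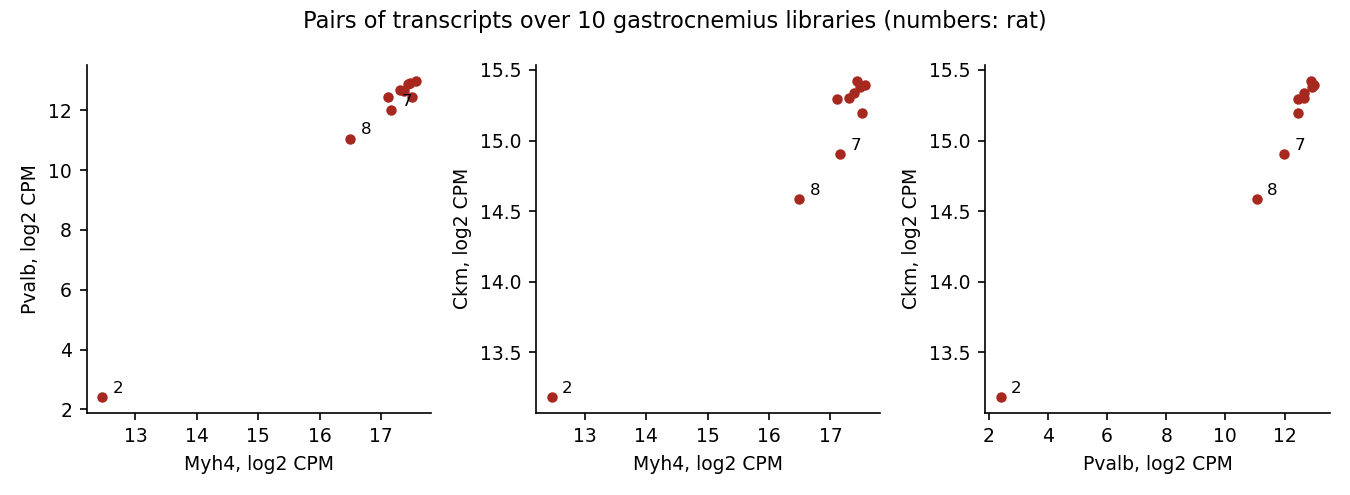
Pvalb against Myh4, Ckm against Myh4 and Ckm against Pvalb over 10 gastrocnemius libraries, each axis in log2 CPM with its own range. The muscle of rat 2 lies alone at the lower left of every panel, and that of rat 8 is the next lowest on each axis.

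A fit across all genes gave the steepness of these relations. In the edgeR quasi-likelihood test with each member's log2 level as the covariate, Pvalb changed by 2.08 log2 units per log2 unit of Myh4 (SE 0.09, adjusted p = 2.13e-08). Ckm changed by 0.43 log2 units per log2 unit of Myh4 (SE 0.05, adjusted p = 5.32e-05). Without the muscle of rat 2 the slope of Pvalb on Myh4 was 1.73 (SE 0.26, edgeR adjusted p = 0.00365) and that of Ckm 0.74 (SE 0.21, edgeR adjusted p = 0.0740), so Ckm was no longer called. With Ckm as the covariate, Pvalb changed by 4.25 log2 units per log2 unit of Ckm over 10 muscles (SE 0.67, edgeR adjusted p = 0.00167) and by 2.12 over the 9 without rat 2 (SE 0.22, edgeR adjusted p = 0.000712). Myh4 changed by 2.15 log2 units per log2 unit of Ckm over 10 muscles (SE 0.25, edgeR adjusted p = 3.71e-05) and by 1.02 without rat 2 (SE 0.24, edgeR adjusted p = 0.0376), so this pair kept its call in that direction of the fit. Without the muscles of rats 2, 7 and 8 none of the slopes between members was called by edgeR. Over these 7 muscles the slope of Pvalb on Ckm was 2.52 (SE 0.84, edgeR adjusted p = 0.872). That slope was 2.12 without rat 2 alone and 4.25 over all 10. The slope of Ckm on Pvalb was 0.30 over these 7 (SE 0.24, edgeR adjusted p = 0.712). It was 0.45 without rat 2 alone and 0.21 over all 10. The slopes that involve Myh4 were all smaller over these 7 than over all 10 or without rat 2 alone. With the rank of a member's level as the covariate, none of the slopes was called either (edgeR adjusted p of 0.118 to 0.456).

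Many other genes moved along the same axis. With Myh4 as the covariate 18.0% of 13335 genes were called, with Pvalb 17.7% and with Ckm 22.0%, and in each fit both of the other members were among them. The Myh4 fit called 1086 genes that rose with it and 1320 that fell, or 744 and 2675 when counts were scaled by library totals. The Pvalb fit called 1089 that rose and 1267 that fell, or 728 and 2674 by library totals, and the Ckm fit 1324 and 1608, or 888 and 2944. Without the muscle of rat 2 the Myh4 fit called 401 genes, of which 342 were among the 2406 called with it. The number of genes called therefore depended on that one library, with 357 called in the Pvalb fit and 390 in the Ckm fit without it. With ranks as the covariate, 891 genes were called with Myh4, 608 with Pvalb and 750 with Ckm. Without the muscles of rats 2, 7 and 8 the Myh4 fit called 670 genes (5.17% of 12960), of which 142 were among those 2406. The Pvalb and Ckm fits called 0 genes each over these 7 muscles.

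The genes most like each member were ranked by the lowest Pearson's r over the 10 sets that leave out 1 muscle library each, among the 5400 other genes averaging 20 CPM or more in muscle. The files and reference tables do not pair their identifiers with names, so 2 are given per direction. Closest to Myh4 were ENSRNOG00000033824, with a lowest r of 0.98, and ENSRNOG00000011329, with a lowest r of 0.96. The level of ENSRNOG00000011329 was 423 CPM in the muscle of rat 2, against 2716 to 5264 CPM in the other 9. Most opposed to Myh4 were ENSRNOG00000012406 and ENSRNOG00000021206, whose highest r over the sets was -0.94 for each. The level of ENSRNOG00000012406 was 265 CPM in the muscle of rat 2, against 54.3 to 128 CPM in the other 9. In all, 33 genes had a lowest r of at least 0.9 with Myh4, and Pvalb ranked 11 and Ckm 52 among the 5400.

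Closest to Pvalb was ENSRNOG00000019745, with a lowest r of 0.99, and Ckm followed with 0.98. The level of ENSRNOG00000019745 was 7.97 CPM in the muscle of rat 2, against 8062 to 25706 CPM in the other 9, so that library held little of it, as of Pvalb. Most opposed to Pvalb were ENSRNOG00000014178 and ENSRNOG00000013351, whose highest r was -0.92 and -0.91, and the slope of ENSRNOG00000013351 was not called (edgeR adjusted p = 0.133). Closest to Ckm were ENSRNOG00000057988, with a lowest r of 0.99 and the same rank order as Ckm in all 10 muscles (rho of 1), and ENSRNOG00000020332, with a lowest r of 0.98. The level of ENSRNOG00000020332 was 1589 CPM in the muscle of rat 2, against 21780 to 40626 CPM in the other 9. Most opposed to Ckm were ENSRNOG00000014719 and ENSRNOG00000053560, whose highest r was -0.94 and -0.93. A lowest r of at least 0.9 was found for 59 genes with Pvalb and for 76 with Ckm. Among the 5400 other genes, Myh4 ranked 22 in likeness to Pvalb. In likeness to Ckm, Pvalb ranked 5 and Myh4 114. These likenesses are descriptions over 10 libraries that share the distance of rat 2. They also share that of rat 8, since no set left out both muscles. Among the other 9 muscles, that of rat 8 had the lowest level of each gene named as close and the highest of each named as opposed.

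The second question was which transcripts stay constant. Ckm had the smallest spread of the 3, but none was as steady as the median gene. The SD of log2 CPM over 10 muscles was 3.23 for Pvalb, 1.55 for Myh4 and 0.69 for Ckm, and the median over the 5401 genes averaging at least 20 CPM was 0.24. Of those genes, 0.204% had a larger SD than Pvalb, 1.18% a larger one than Myh4 and 7.09% a larger one than Ckm. Without the muscle of rat 2, the SD was 0.61 for Pvalb, 0.33 for Myh4 and 0.28 for Ckm, next to a median of 0.21. A larger SD was then found in 4.74% of genes for Pvalb, 19.4% for Myh4 and 27.5% for Ckm.

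**Figure D3:**
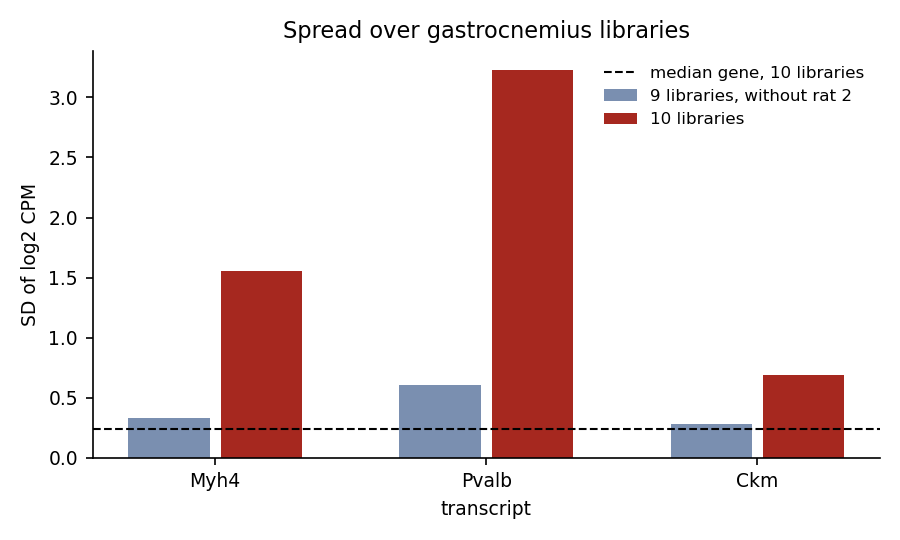
SD of log2 CPM over gastrocnemius libraries for each transcript, without the muscle of rat 2 (left bars) and with all 10 muscles (right bars), and the median gene over 10 libraries as a dashed line. Pvalb has the tallest bars, at 0.61 and 3.23, and Ckm the shortest, at 0.28 and 0.69.

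The difference in spread was tested on the absolute deviation of each muscle from the transcript's own median, with signs flipped in every way over the 10 rats (an exact permutation test, two-sided, adjusted over 3 pairs). Pvalb deviated by 1.01 log2 units more than Ckm (SD 2.48, larger in 9 of 10 rats, exact permutation p = 0.00391, adjusted p = 0.0117). Without rat 2 this difference was 0.22 (adjusted p = 0.0352 in the same exact test), and leaving out any one of rats 3, 5, 6, 9 and 10 gave adjusted p of 0.0527 to 0.0586. Myh4 deviated by 0.69 less than Pvalb (difference -0.69, SD 1.62, smaller in 8 of 10 rats, exact permutation p = 0.0195, adjusted p = 0.0293). That call was lost under 3 other scalings and when any one of rats 2, 3 and 5 to 10 was left out, where the adjusted p of the same exact test was 0.0527 to 0.0938, and the difference without rat 2 was -0.18. Myh4 deviated by 0.32 more than Ckm (SD 0.87, larger in 7 of 10 rats, exact permutation p = 0.154), a difference that did not pass the test.

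Ratios of reads within a library do not depend on the scaling and could be followed into white adipose tissue. The ratio of Myh4 to Ckm reads was 0.607 in the muscle of rat 2 (exact 95% interval 0.602 to 0.613, counting error only) and 3.53 to 4.97 in the other 9 muscles. In white adipose tissue it was 1.002 in rat 4 (interval 0.856 to 1.18) and 2.87 to 4.55 in the other 9 rats. The ratio of Pvalb to Ckm reads was 0.000561 in the muscle of rat 2 (interval 0.000432 to 0.000716) and 0.0869 to 0.190 in the other 9 muscles. In white adipose tissue it was 0.0859 to 0.257 over all 10 rats. Outside the muscle of rat 2 and the adipose library of rat 4, both ratios thus had overlapping ranges in the 2 tissues.

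The 2 libraries of rat 2 differed in these proportions. Its adipose library held 154 reads of Myh4, 7 of Pvalb and 40 of Ckm. The ratio of Myh4 to Ckm was 0.607 in its muscle, against 3.91 (interval 2.70 to 5.60) in its adipose library. The ratio of Pvalb to Ckm was 0.000561 in its muscle, against 0.182 (interval 0.0661 to 0.395) in its adipose library. The intervals of the tissues do not overlap for either ratio, and the adipose values fall within the range of the muscles of the other rats. In rat 4 it was the adipose library that stood apart, with a ratio of Myh4 to Ckm of 4.97 in muscle, against 1.002 in adipose tissue, on 320 reads of Myh4 and 319 of Ckm. The origin of these reads was not tested.

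**Figure D4:**
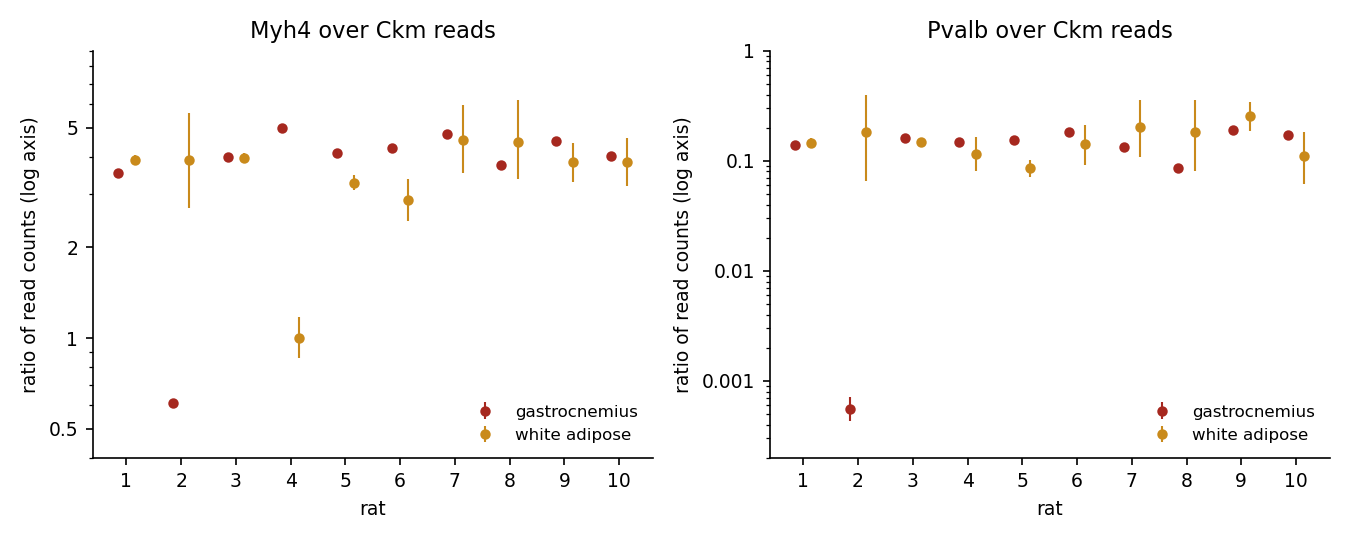
Ratio of Myh4 to Ckm reads (left) and of Pvalb to Ckm reads (right) by rat, on log axes, with gastrocnemius left of white adipose tissue for each rat and bars for exact 95% intervals of counting error. The muscle of rat 2 has the lowest ratio in both panels, and the adipose library of rat 4 has a ratio of Myh4 to Ckm of 1.002.

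In the adipose libraries of rats 3 and 1 the 3 members stood at nearly the same fraction of their muscle median. In the adipose library of rat 3, Myh4 was at 0.770%, Pvalb at 0.786% and Ckm at 0.798% of the median muscle level. In that of rat 1 the values were 0.394% for Myh4, 0.406% for Pvalb and 0.415% for Ckm. These values rest on 607 or more reads per gene. Their size depends on the scaling: by library totals they were 1.51%, 1.46% and 1.58% in rat 3 and 1.05%, 1.03% and 1.11% in rat 1. With TMM factors, Myh4 was at 0.0749%, Pvalb at 0.0539% and Ckm at 0.0939% in the adipose library of rat 5, and in the remaining 7 adipose libraries each member was at 0.00535% to 0.0342%.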

How the data were processed

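The authors deposited expected counts per gene and library, not normalised and with fractions of a read; the submitters' processing notes name featureCounts, STAR, bcl2fastq and the build rn6, without roles or versions. Per the labels' protocols, mRNA-Seq kit libraries were made from 300 ng of total RNA. For strand setting, annotation and shared reads, the choice is not given in the sources used here. Counts were rounded to whole numbers and analysed in R 4.3.3 with edgeR 4.0.16 (filterByExpr, TMM factors, robust quasi-likelihood test, Benjamini-Hochberg adjustment over all genes tested, threshold 0.05). Each SE of an edgeR fold change or slope is its absolute log2 value over the square root of the test's F statistic. Levels on the log2 scale used a prior count of 2. Permutation tests used 100000 resamples for 10 libraries and all orders for fewer, in Python 3.11.15. The members and lists were chosen with earlier results of these data known.

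Columns were matched to samples by tissue letter and rat number. Libraries of the same number come from 1 animal per the labels and the design text; over 8303 genes, deviations from the tissue means had a median correlation of 0.12 within animals (-0.22 to 0.42) and -0.03 between animals. No muscle libraries agreed within sampling noise (lowest chi-square per degree of freedom 12.4). The labels give no batch. Lists of fast and slow contractile, calcium, glycolytic, oxidative, regulatory and developmental myosin genes and of cell type markers could not be used, since 0 reference rows carry identifiers of the kind in the table. The rule for named genes took the members, then the genes with the highest lowest r per member and the most negative, limited to 2 each without symbols. Fits were checked on simulated counts in which unchanged genes carried no shift of a single library. That check cannot show how many calls the muscle of rat 2 brings. Alternatives were other scalings, no filter, limma-voom (limma 3.58.1), DESeq2 1.42.0, the animal as a block, ranks as covariate, a prior count of 0.5 and each rat left out. Fits leaving out adipose libraries 1, 3 and 5, or muscle libraries 2, 7 and 8, DESeq2 without replacement of outlying counts, and the count of all genes without each rat were added after seeing the data.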

Additional observations from a re-analysis of the deposited data

Results flagged for a closer look

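Among 14 groups of 10 libraries (7 measures in each tissue), the highest and lowest library was set against its neighbour, and in 9 cases the gap over the range exceeded Dixon's critical value of 0.466; chance gives about 1 in 20 groups. The measures draw on the same libraries and in part on the same counts, so the cases are not independent. Their number can therefore not be weighed against that rate. The muscle of rat 2 stood apart in 5 of the cases. Its Pvalb was 2.41 log2 CPM, next to 11.06 in the nearest muscle, its Myh4 12.46 next to 16.49 and its Ckm 13.18 next to 14.58. Its log2 ratio of Myh4 to Ckm reads was -0.72, next to 1.82, and that of Pvalb to Ckm reads was -10.80, next to -3.52. The adipose library of rat 4 had a log2 ratio of Myh4 to Ckm reads of 0.0024, next to 1.52. The other 3 cases concern libraries as a whole: a total of 8446548 counts in the muscle of rat 7, a total of 25904168 counts in the adipose library of rat 5, and 32.6% of counts in the 10 most abundant genes of the adipose library of rat 3. The causes were not tested.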

How the results depend on the processing

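With the animal as a block, 10990 genes differed between the tissues, against 11011 without it, and the log2 fold changes of muscle over adipose were 11.57 for Myh4, 10.92 for Pvalb and 11.49 for Ckm. DESeq2, which replaced outlying counts, gave 4.57 for Myh4 and 4.50 for Ckm (9.40 and 9.30 without that replacement), and fits without adipose libraries 1, 3 and 5 gave 13.03 and 12.55. Genes varying with Myh4, Pvalb and Ckm numbered 891, 608 and 750 with ranks as the covariate, in which no slope between members was called (edgeR adjusted p of 0.118 to 0.456), and 670, 0 and 0 without muscle libraries 2, 7 and 8, where 2928, 1134 and 700 genes had an unadjusted edgeR p below 0.05. Leaving out each rat gave 401 to 2551, 357 to 2471 and 390 to 3016 genes, the lowest in each case without rat 2, whose absence also gave the lowest SDs. The SDs ran from 0.33 to 1.64 for Myh4, 0.61 to 3.42 for Pvalb and 0.28 to 0.73 for Ckm. Without muscle libraries 2, 7 and 8, r was 0.61 for Myh4 and Pvalb and 0.22 for Myh4 and Ckm, and neither passed. The lower deviation of Myh4 than Pvalb did not pass with library totals (-0.68, adjusted p = 0.0938 in the exact sign-flip test), totals without the most abundant genes (-0.68, 0.0557) or TMM factors from muscle alone (-0.67, 0.0674), and ran from -0.78 to -0.18 with each rat left out. For Pvalb over Ckm that range was 0.22 to 1.11. Other causes were not tested. No result changed direction under the alternatives run. Reads carry no molecular identifiers, so intervals cover counting error only, and Pvalb rests on 7 to 631 reads in adipose libraries.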
